A study of Mus musculus with 16 samples.

Results

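The 36 genes described here encode the proteins that fold, modify and export collagen in the endoplasmic reticulum (ER), together with the sensors and transcription factors of the ER stress response. They were found among 55414 gene identifiers counted in every library, and each of the 36 passed the filter on low counts and was tested in each comparison. By role they comprise 11 ER chaperones, 4 disulfide isomerases, 6 stress sensors and transcription factors, 2 genes of ER-associated degradation (ERAD) and the translocon, 3 prolyl 4-hydroxylases, 3 lysyl hydroxylases, 3 members of the prolyl 3-hydroxylase complex, 2 collagen chaperones and 2 genes of ER exit. They were picked by symbol for their function, with earlier results of these data known.

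The libraries were made from RNA of chondrocyte-enriched cells, obtained from the epiphyses of the long bones of newborn mice, male and female pooled, and grown to confluence. Control cells were from wild type littermates. Mutant cells were from mice heterozygous for *Notch2tm1.1Ecan*, a global knock-in on a C57BL/6 background with a stop codon ahead of the PEST domain, so that the NOTCH2 intracellular domain is stabilized in every cell that transcribes *Notch2*. Cells of each genotype received vehicle (PBS) or, for 6 h, tumor necrosis factor α (TNFα, 50 ng/ml), and each of the 4 groups had 4 libraries, 16 in all. The labels state that serum was removed for the TNFα groups, whereas the study states that both treatments were given without serum. If the labels are right, TNFα and serum removal cannot be told apart in the comparisons of TNFα with vehicle. The labels call the libraries of a group biological replicates without saying whether they came from separate animals or cultures, so the p values measure the spread between these libraries.

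Procollagen chains enter the ER lumen through the translocon, are hydroxylated on prolines and lysines while still unfolded, and wind into a triple helix that dedicated chaperones hold in shape until large vesicles carry it out. Chondrocytes make so much type II collagen and aggrecan that their ER is exceptionally rich in this machinery, and faults in it cause skeletal dysplasias. When unfolded protein builds up, the membrane sensors IRE1, ATF6 and PERK start the unfolded protein response, which raises chaperone and ERAD genes through XBP1 and ATF6 and stress genes such as *Ddit3* through ATF4.

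Each library held between 3439726 and 44237300 counts on genes. The smallest was mutant TNFα replicate 4, and even there *Hspa5* held 3633 counts. Replicate 4 of the control vehicle group stood apart from the other vehicle libraries on the first principal component (-17.0 against -67.3 to -63.7), and its *Icam1*, a gene that TNFα induces, was 439 CPM (counts scaled to the library's total) against 34.4 CPM in the lowest control vehicle library. Replicate 4 of control TNFα stood apart to a smaller degree on the same component. Mutant TNFα replicate 4, the smallest library, stood apart from the rest of its group on the next component (-66.9 against -4.70 to -3.70). *Notch2* counts do not check the genotype, since the allele changes a codon. The Notch target gene *Heyl* was at 0.152 to 0.298 CPM in control and 1.44 to 2.28 CPM in mutant vehicle libraries. *Col2a1*, which defines chondrocytes, was abundant in each library (13473 to 39311 CPM), and the fibroblast gene *Col1a1* was abundant too (12212 to 18557 CPM).

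Without TNFα, the genes differed widely in level. On the scale of CPM per kilobase of the canonical transcript, the mean level in control vehicle libraries was highest for *Serpinh1* (1276), which encodes the collagen chaperone HSP47, and then for *Calr* (799.9), *P4hb* (682), *Hsp90b1* (460.0) and *Hspa5* (394). It was lowest for the sensor gene *Ern1* (10.1), the co-chaperone gene *Dnajb9* (17.5) and the sensor gene *Atf6* (18.0). Among the prolyl 4-hydroxylase α subunits, which carry the catalytic site, the order was *P4ha1* (224), *P4ha2* (143) and *P4ha3* (31.6). Among the lysyl hydroxylases it was *Plod3* (117), *Plod2* (107) and *Plod1* (49.5). These orders are of group means, and the libraries of neighbours in both families did not overlap in CPM per kilobase. Together the 36 genes took 1.98 to 2.08% of the counts in control vehicle and 2.06 to 2.11% in mutant vehicle libraries. With TNFα they took 1.68 to 1.76% in control and 1.63 to 1.69% in mutant cells, so that no TNFα library reached the lowest vehicle library. The same held when *Serpinh1*, the largest single contributor, was left out (1.65 to 1.74% with vehicle and 1.38 to 1.49% with TNFα over both genotypes). In bulk RNA, fewer cells of a type and less RNA per cell cannot be told apart, and each level here is a share of the RNA of the whole culture.

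The first comparison asked how the genes responded to TNFα in control cells. Of the 36 genes, 26 fell, 2 rose and 8 did not pass an adjusted p of 0.05 (quasi-likelihood test of edgeR, Benjamini-Hochberg adjustment over 19338 genes). Over all genes tested, 20.9% fell and 23.3% rose. The median log2 fold change of the 36 was -0.29, against 0.039 over all genes tested. Libraries of the 2 groups did not overlap, with TNFα lower, for 27 of the 36, against 20.2% of all genes tested. With all libraries, none of the 36 passed a log2 fold change of 1 in either direction in control cells. Leaving out single libraries, the lowest value of *Sec23a* was -1.05. Without both control replicate 4 libraries 27 genes fell and 2 rose.

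In mutant cells, 25 of the 36 genes fell with TNFα and 3 rose, and 8 did not pass, against 21.9% and 22.6% of the 19633 genes tested. The median log2 fold change was -0.36, against 0.026 over all genes tested. Libraries did not overlap, with TNFα lower, for 24 of the 36, against 20.4% of all genes. *Xbp1* and *Manf* fell by more than 1 on the log2 scale. The 2 comparisons use separate libraries. Across the 36 genes their log2 fold changes correlated with r = 0.965, against 0.803 across the 18780 genes tested in both, and these are correlations across genes, which are not independent replicates. In both genotypes 24 of the 36 genes fell and 2 rose, and 6 passed in neither: *Canx*, *Dnajb9*, *Pdia3*, *Plod3*, *Crtap* and *Ppib*. Of the 18780 genes tested in both, 3408 fell and 3533 rose in both genotypes, and 8592 passed in neither.

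**Figure D1:**
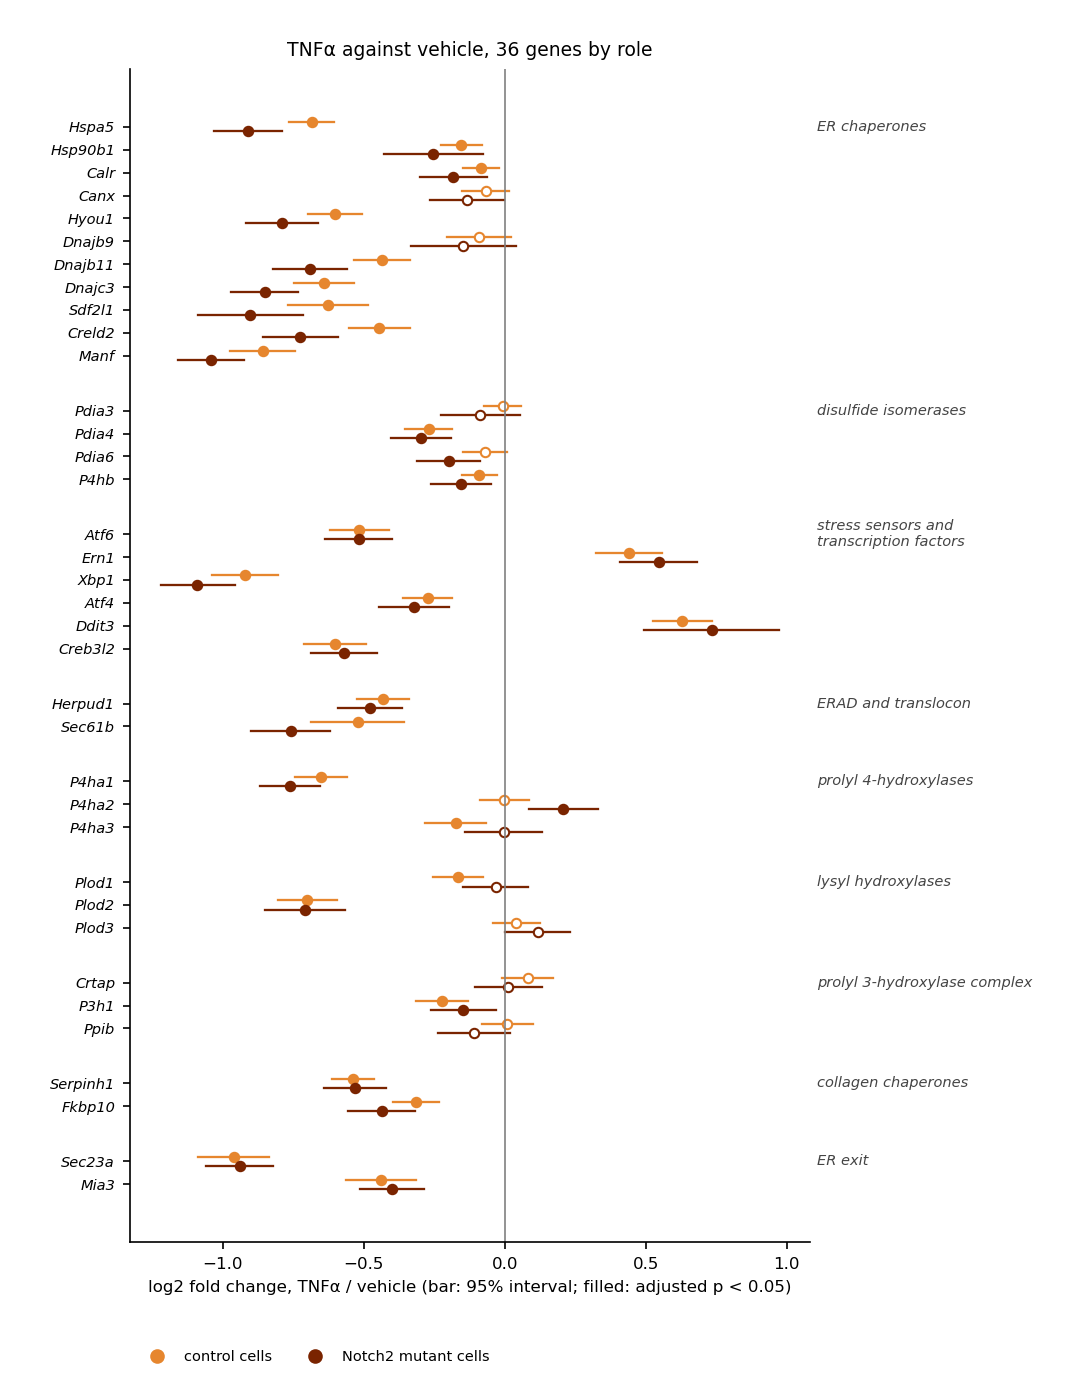
Log2 fold change of TNFα against vehicle (x axis) for the 36 genes, ordered by role (y axis), in control cells (orange) and Notch2 mutant cells (brown), with 95% intervals. Filled points passed an adjusted p under 0.05, 28 in each genotype, and most lie left of 0, with *Ern1* and *Ddit3* to the right in both genotypes.

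Of the 11 ER chaperones 9 fell in each genotype, all but *Canx* and *Dnajb9*. *Hspa5* (ENSMUSG00000026864), which encodes the HSP70 protein BiP, was at 1986, 1974, 1970.4 and 1881 CPM in the control vehicle libraries, replicates 1 to 4, and at 1173, 1146, 1181 and 1338 CPM with TNFα. In mutant cells it was at 1983, 2207, 2152 and 2025 CPM with vehicle and at 1171, 1181, 1087 and 1002 CPM with TNFα. The highest TNFα library of either genotype was well below the lowest vehicle library. The log2 fold change was -0.68 ± 0.041 (adjusted p = 4.35e-11) in control and -0.91 ± 0.061 (adjusted p = 1.13e-12) in mutant cells. Here and below, ± gives a standard error derived from the test statistic of the fit, with n = 4 libraries a group. *Hyou1*, whose product GRP170 recharges BiP with ATP, changed by -0.60 ± 0.049 (adjusted p = 1.69e-09) and -0.79 ± 0.065 (adjusted p = 7.32e-11). *Dnajc3*, a J-domain co-chaperone of BiP that also restrains PERK, changed by -0.64 ± 0.054 (adjusted p = 2.90e-09) and -0.85 ± 0.061 (adjusted p = 3.71e-12). The J-domain gene *Dnajb11*, whose product holds unfolded clients for BiP, had log2 fold changes of -0.43 ± 0.051 (adjusted p = 3.50e-07) and -0.69 ± 0.067 (adjusted p = 2.09e-09).

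*Manf* (ENSMUSG00000032575), which encodes a BiP-bound protein that is also secreted, was at 229, 238, 229 and 202 CPM in control vehicle and 118, 115, 121 and 138 CPM in control TNFα libraries. In mutant cells it went from 270.2, 267, 269 and 251 CPM to 131, 129.7, 121 and 132 CPM. Every TNFα library was lower than every vehicle library, also where control vehicle replicate 4 was the lowest vehicle library. Its log2 fold changes were -0.86 ± 0.06 (adjusted p = 2.18e-10) and -1.04 ± 0.059 (adjusted p = 2.93e-14). *Sdf2l1*, which encodes a partner of the *Dnajb11* product, was at 31.2 to 33.6 CPM with vehicle and 19.5 to 23.2 CPM with TNFα in control cells, and at 39.3 to 44.3 and 19.2 to 30.3 CPM in mutant cells. It fell, with log2 fold changes of -0.63 ± 0.072 and -0.90 ± 0.10. Its highest value with TNFα was in mutant replicate 4, the smallest library, and the other mutant TNFα libraries were at 19.2 to 22.4 CPM. *Creld2*, whose ER-resident product has isomerase-like domains, fell with log2 fold changes of -0.45 ± 0.055 and -0.72 ± 0.068.

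Other chaperones, among them abundant ones, moved less. *Hsp90b1*, which encodes the ER form of HSP90, was at 1262 to 1351 CPM in control vehicle and 1131 to 1205 CPM in control TNFα libraries, a log2 change of -0.15 ± 0.037 (adjusted p = 0.00157). In mutant cells its libraries overlapped, and the change of -0.25 ± 0.089 (adjusted p = 0.0318) no longer passed when any of mutant vehicle replicates 2 or 4 or mutant TNFα replicates 1 or 4 was left out (without them -0.21, -0.24, -0.26 and -0.19, adjusted p up to 0.108). The lectin chaperones calreticulin and calnexin, which bind newly glycosylated proteins, differed from each other in their calls. *Calr* fell with a log2 fold change of -0.084 ± 0.033 (adjusted p = 0.0449) in control cells, a call lost when control vehicle replicate 3 or 4 or control TNFα replicate 1, 2 or 3 was left out (range -0.10 to -0.073). In mutant cells its change was -0.18 ± 0.06 (adjusted p = 0.0151). *Canx* did not pass, with -0.067 ± 0.042 and -0.14 ± 0.067, except without mutant vehicle replicate 1 (-0.19, adjusted p = 0.0032). *Dnajb9*, a co-chaperone that keeps IRE1 inactive and a common marker of XBP1 activity, did not pass either (-0.09 ± 0.058 and -0.15 ± 0.10), and its 95% intervals were -0.21 to 0.024 and -0.33 to 0.042. Without mutant vehicle replicate 1, where *Dnajb9* was at 29.0 CPM against 37.2 to 41.4 CPM in the other libraries of that group, the change in mutant cells passed (-0.23, adjusted p = 0.00698).

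**Figure D2:**
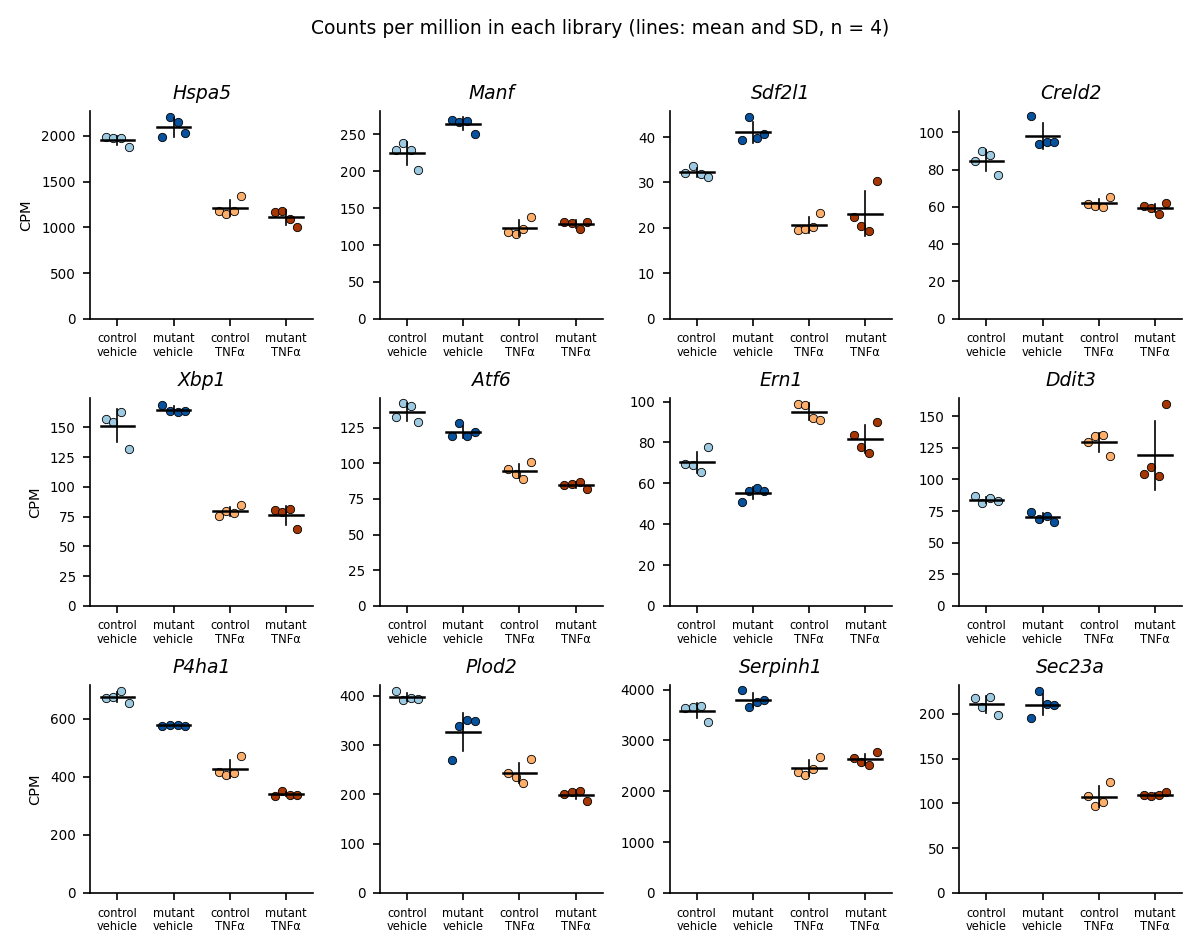
CPM (y axis, from 0) of 12 of the genes in each of the 16 libraries, by group (x axis), with the mean and SD of 4 libraries. With TNFα, the 8 points of *Hspa5*, *Manf*, *Sdf2l1*, *Creld2*, *Xbp1*, *Atf6*, *P4ha1*, *Serpinh1* and *Sec23a* lie below the 8 vehicle points of the same gene, and those of *Ddit3* lie above.

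Of the 4 disulfide isomerases, which form and rearrange the bonds that join procollagen chains, 2 fell in control and 3 in mutant cells, by small amounts. *Pdia4* changed by -0.27 ± 0.043 (adjusted p = 1.92e-05) in control and -0.30 ± 0.054 (adjusted p = 5.24e-05) in mutant cells. *P4hb*, which is both a disulfide isomerase and the β subunit of prolyl 4-hydroxylase, was at 1954 to 2051 and 1810.0 to 1908 CPM in control cells, a change of -0.089 ± 0.031 (adjusted p = 0.0217). This call was lost without control vehicle replicate 2 or 3 or control TNFα replicate 2 or 3 (adjusted p up to 0.12). In mutant cells *P4hb* changed by -0.16 ± 0.054 (adjusted p = 0.0206), lost without mutant vehicle replicate 1 or 3 or mutant TNFα replicate 3 (adjusted p up to 0.0721). *Pdia6* fell in mutant cells with a log2 fold change of -0.20 ± 0.058 (adjusted p = 0.00585), and in control cells its change of -0.07 ± 0.039 passed only when control TNFα replicate 4 was left out, alone or with control vehicle replicate 4 (alone -0.10, adjusted p = 0.0381). *Pdia3*, the partner of calnexin and calreticulin, did not pass, with 95% intervals of -0.074 to 0.059 and -0.22 to 0.053, other than without mutant vehicle replicate 1 (-0.15, adjusted p = 0.0144).

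The sensors and transcription factors of the stress response went both ways. *Xbp1* (ENSMUSG00000020484), which encodes the transcription factor that IRE1 activates by splicing its mRNA, was at 157, 154, 163 and 131 CPM in control vehicle and 75.7, 79.3, 77.6 and 85.0 CPM in control TNFα libraries. In mutant cells it was at 169, 164, 163 and 163 CPM with vehicle and 80.9, 78.7, 81.0 and 64.3 CPM with TNFα. The libraries of the 2 treatments were far apart, and no TNFα value came near the lowest vehicle value, that of control replicate 4. The changes were -0.92 ± 0.06 (adjusted p = 9.67e-11) and -1.09 ± 0.067 (adjusted p = 1.64e-13), and because gene counts add the spliced and unspliced forms, splicing was not measured. *Ern1* (ENSMUSG00000020715), which encodes IRE1α, rose from 69.5, 68.9, 65.5 and 77.7 CPM to 99.0, 98.1, 92.0 and 91.2 CPM in control cells, by 0.44 ± 0.06 (adjusted p = 2.74e-06) on the log2 scale. In mutant cells *Ern1* rose from 50.9, 56.2, 57.7 and 56.4 CPM to 83.5, 77.8, 74.6 and 90.2 CPM, by 0.55 ± 0.07 (adjusted p = 2.51e-07). Within each genotype its TNFα libraries were all above its vehicle libraries.

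*Ddit3* (ENSMUSG00000025408), which encodes the stress transcription factor CHOP, rose in both genotypes as well. It was at 86.6, 81.2, 85.3 and 83.0 CPM with vehicle and 129, 134, 135 and 119 CPM with TNFα in control cells, and at 74.0, 69.0, 71.4 and 66.1 CPM and 104, 109.6, 103 and 159 CPM in mutant cells. Mutant TNFα replicate 4 was the highest of the 16 libraries, and the other 3 libraries of its group were also above each vehicle library. The rise was 0.63 ± 0.053 (adjusted p = 3.20e-09) and 0.73 ± 0.12 (adjusted p = 4.20e-04). *Atf4*, the transcription factor upstream of *Ddit3* that is regulated largely at translation, fell with log2 fold changes of -0.27 ± 0.045 (adjusted p = 2.61e-05) and -0.32 ± 0.064 (adjusted p = 1.48e-04). *Atf6*, whose product is cut in the Golgi to become a transcription factor, was at 129 to 142 CPM with vehicle and 89.1 to 101 CPM with TNFα in control cells, and at 119 to 128 and 82.2 to 86.8 CPM in mutant cells. It fell, with log2 fold changes of -0.52 ± 0.053 and -0.52 ± 0.06. *Creb3l2*, which encodes the related membrane-bound factor BBF2H7, known to drive *Sec23a* in chondrocytes, fell with log2 fold changes of -0.60 ± 0.056 and -0.57 ± 0.059.

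*Sec23a* (ENSMUSG00000020986), part of the inner coat of the COPII vesicles that leave the ER, fell the most of the 36 genes in control cells. It was at 217, 208, 218 and 199 CPM in control vehicle and 108, 97.1, 101 and 124 CPM in control TNFα libraries. In mutant cells it went from 196, 225, 211 and 209 CPM to 109, 108, 109 and 113 CPM. The changes were -0.96 ± 0.064 (adjusted p = 3.63e-10) and -0.94 ± 0.061 (adjusted p = 4.60e-13), and without both control replicate 4 libraries the change in control cells was -1.07. *Mia3*, which encodes TANGO1, the receptor that loads procollagen into these vesicles, fell with log2 fold changes of -0.44 ± 0.063 and -0.40 ± 0.058. At the entry side, the translocon subunit gene *Sec61b* fell with log2 fold changes of -0.52 ± 0.084 and -0.76 ± 0.072, and the ERAD scaffold gene *Herpud1* fell with log2 fold changes of -0.43 ± 0.048 and -0.48 ± 0.057.

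Among the prolyl 4-hydroxylases, and likewise among the lysyl hydroxylases, 1 gene fell much more than the others. *P4ha1* (ENSMUSG00000019916) was at 673, 677, 697 and 653 CPM in control vehicle and 416, 405, 415 and 473 CPM in control TNFα libraries, and at 575, 581, 580.0 and 577 CPM and 335, 351, 338 and 339 CPM in mutant cells. The 4 groups formed 4 separate levels with no overlap between any pair. Its changes with TNFα were -0.65 ± 0.047 (adjusted p = 3.71e-10) and -0.76 ± 0.054 (adjusted p = 3.73e-12). *P4ha2* did not pass in control cells (318 to 334 and 319 to 334 CPM, a change with a 95% interval of -0.088 to 0.085) and rose in mutant cells by 0.21 ± 0.063 (adjusted p = 0.00809), although mutant vehicle replicate 1 (336 CPM) lay within the TNFα range of 327 to 369.9 CPM. In control cells *P4ha3* fell, by a log2 change of -0.17 ± 0.056 (adjusted p = 0.0137). The call was lost without control vehicle replicate 1 or control TNFα replicate 1 (-0.15 each). Its change in mutant cells was -0.0041 ± 0.07.

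The lysyl hydroxylases showed the same unevenness. *Plod2* (ENSMUSG00000032374), whose product hydroxylates the lysines of collagen ends that later form cross-links, was at 409.8, 391, 396 and 393 CPM in control vehicle and 244, 236, 224 and 271 CPM in control TNFα libraries. In mutant cells it was at 270.1, 338, 352 and 349 CPM with vehicle and 201, 204, 206 and 187 CPM with TNFα. Mutant vehicle replicate 1 was low and still lay above the highest TNFα library of its genotype. The changes were -0.70 ± 0.054 (adjusted p = 8.26e-10) and -0.71 ± 0.072 (adjusted p = 1.15e-08). *Plod1*, which acts on lysines within the helix, fell in control cells with a log2 fold change of -0.17 ± 0.046 (adjusted p = 0.00466) and had a change of -0.032 ± 0.059 in mutant cells. *Plod3*, which also adds sugars to hydroxylysine, passed in neither (0.041 ± 0.042 and 0.12 ± 0.059), other than without mutant vehicle replicate 1 (0.17, adjusted p = 0.009).

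The prolyl 3-hydroxylase complex, which modifies single prolines and also acts as a chaperone, moved little. *P3h1*, its catalytic subunit, fell with a log2 fold change of -0.22 ± 0.048 (adjusted p = 5.19e-04) in control cells and of -0.15 ± 0.059 (adjusted p = 0.0465) in mutant cells, and the latter was lost in 6 of 8 fits without 1 library, with adjusted p up to 0.135: those without any mutant vehicle library or mutant TNFα replicate 2 or 3. It was also lost with another scaling of the libraries (RLE), with the default filter of edgeR on low counts (filterByExpr) and with no filter beyond 1 count (adjusted p = 0.0553, 0.0754 and 0.0541). *Crtap* and *Ppib*, which encode its scaffold and its cyclophilin, did not pass, with 95% intervals of -0.0087 to 0.17 and -0.08 to 0.10 in control cells. In contrast, both dedicated collagen chaperones fell. *Serpinh1* (ENSMUSG00000070436) was at 3645, 3650.2, 3680.4 and 3364 CPM in control vehicle and 2373, 2325, 2442 and 2679.7 CPM in control TNFα libraries, and at 3995, 3649.6, 3747 and 3792 and 2653, 2569, 2511 and 2769.8 CPM in mutant cells. The TNFα libraries were below the vehicle libraries in both genotypes. Its change was -0.54 ± 0.038 (adjusted p = 8.92e-10) and -0.53 ± 0.056 (adjusted p = 7.72e-09). *Fkbp10*, which encodes the collagen-binding prolyl isomerase FKBP65, fell with log2 fold changes of -0.31 ± 0.041 and -0.44 ± 0.06.

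**Figure D3:**
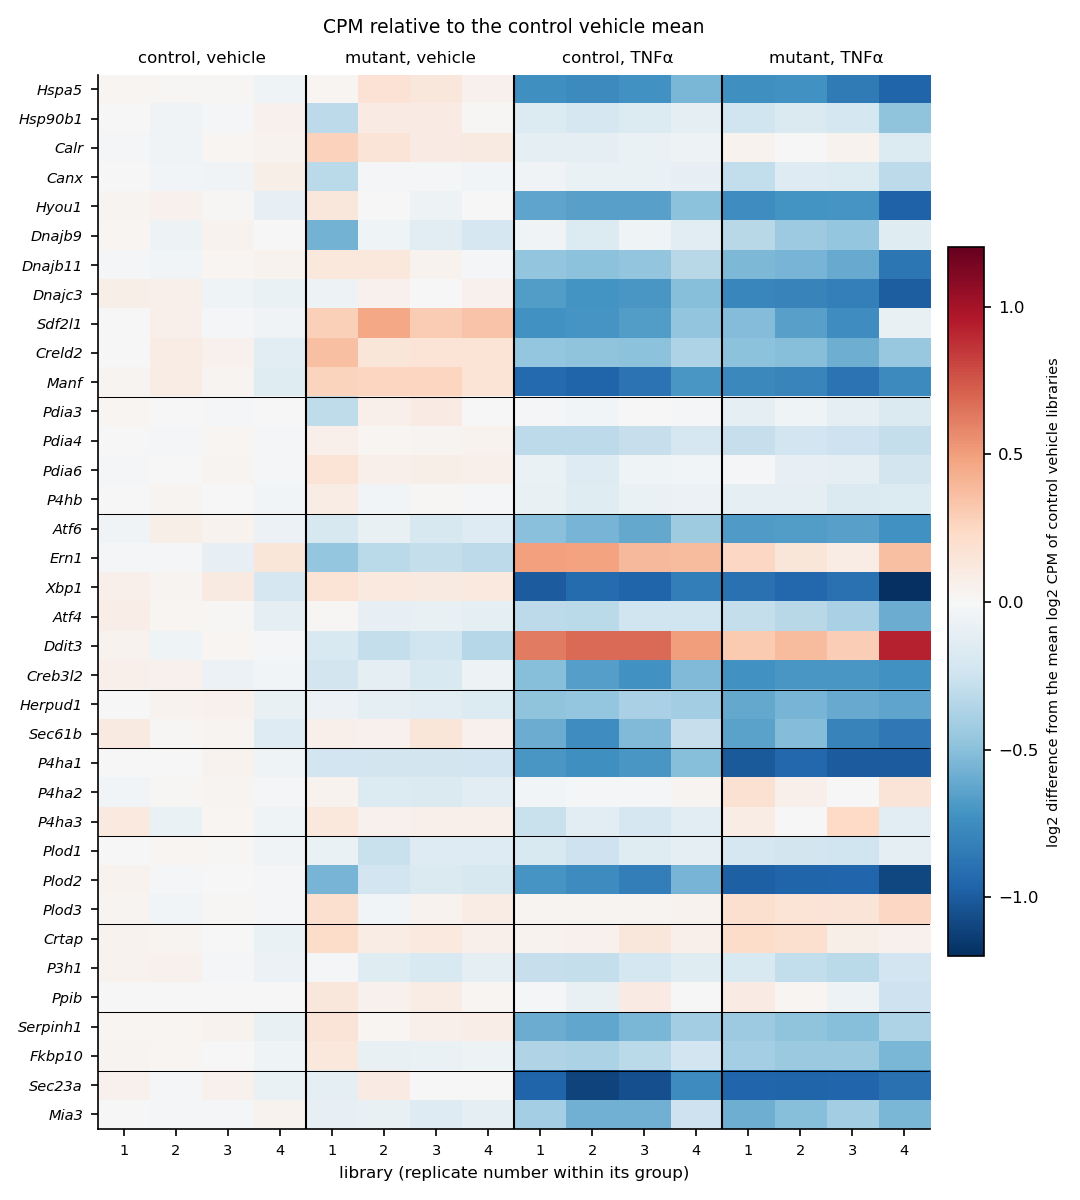
CPM of the 36 genes (rows, by role) in the 16 libraries (columns, by group and replicate), as the log2 difference from the mean of the 4 control vehicle libraries, with blue lower and red higher. Most rows are blue in the 8 TNFα columns, *Ern1* and *Ddit3* are red there, and mutant vehicle replicate 1 and mutant TNFα replicate 4 differ from their groups in several rows.

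Several of the chaperone genes carry, ahead of their start site, the ER stress response element (ERSE), at which ATF6 and the factor NF-Y are known to bind. It was searched on both strands of the RefSeq promoters of GRCm38.p6 (250 bases before to 50 bases after each start), as CCAAT, any 9 bases, CCACG. Of the 36 genes 31 matched an entry of that table by symbol, and *Atf6*, *Fkbp10*, *Hyou1*, *Manf* and *Plod2* were not searched. It was found in 7 of the 31 genes and in 3 of 37 other ER folding and export genes, against 37 of 27025 genes of the table (0.137%), and *Hsp90b1* held 2. The element is named for the ER stress response, for which the 36 genes were chosen, so its excess is not independent of that choice. Among the chaperones searched, *Dnajb9*, *Dnajb11* and *Sdf2l1* had no match. The matches of the 7 genes are shown as a description of sequence. Each is given with 5 bases on either side, read 5′ to 3′ along the motif, with its fixed letters in capitals.
Hspa5, chr2:34772020-34772048, nearest motif base 47 bases before the start: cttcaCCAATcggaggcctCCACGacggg
Dnajc3, chr14:118937822-118937850, nearest motif base 87 bases before the start: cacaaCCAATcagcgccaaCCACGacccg
Creld2, chr15:88819515-88819543, nearest motif base 108 bases before the start: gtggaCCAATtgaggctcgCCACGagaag
Hsp90b1, chr10:86705528-86705556, nearest motif base 89 bases before the start: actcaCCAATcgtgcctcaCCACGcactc
Hsp90b1, chr10:86705633-86705661, nearest motif base 194 bases before the start: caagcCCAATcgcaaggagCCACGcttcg
Calr, chr8:84847070-84847098, nearest motif base 144 bases before the start: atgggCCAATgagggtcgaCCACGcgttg
Pdia6, chr12:17266486-17266514, nearest motif base 80 bases before the start: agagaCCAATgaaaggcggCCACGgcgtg
Canx, chr11:50325795-50325823, nearest motif base 127 bases before the start: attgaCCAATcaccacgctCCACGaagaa

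The motif reads in the direction of transcription in *Hspa5*, *Dnajc3*, *Pdia6*, *Canx* and the farther match of *Hsp90b1*, and against it in *Creld2*, *Calr* and the nearer match of *Hsp90b1*. *Hspa5* is shown at more length because its match sits nearest to the start. The 150 bases before its start (chr2:34771940-34772089, plus strand), with the match in capitals, are:
Hspa5: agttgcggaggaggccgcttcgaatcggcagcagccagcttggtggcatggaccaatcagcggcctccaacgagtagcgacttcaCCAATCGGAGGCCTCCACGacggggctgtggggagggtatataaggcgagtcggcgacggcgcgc

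The 7 genes with a match did not share one response to TNFα. In control cells *Hspa5*, *Dnajc3* and *Creld2* changed by -0.68, -0.64 and -0.45 on the log2 scale, and *Hsp90b1*, *Calr*, *Pdia6* and *Canx* by -0.15, -0.084, -0.07 and -0.067. The median of the 7 was -0.15 in control and -0.25 in mutant cells, and of the 24 genes in the table without a match -0.25 and -0.23. A related element, ERSE-II (ATTGG, any base, CCACG), was found in *Herpud1* and *Dnajb11*, against 12 of 27025 genes (0.044%). In *Dnajb11* it lies after the start, at positions 8 to 18. In *Herpud1* it lies 52 to 42 bases before the start and overlaps a match to the XBP1 core.
Herpud1, chr8:94386372-94386392, plus strand: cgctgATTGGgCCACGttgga

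The XBP1 core (ACGTGG) was found in 10 of the 31 genes (*P3h1*, *Serpinh1*, *Herpud1*, *Ppib*, *P4ha2*, *P4hb*, *Pdia6*, *Dnajb9*, *Sec23a* and *Dnajc3*), against 17 of 37 other ER folding and export genes and 9.40% of all genes of the table. An ATF6 site (TGACGTGG, which holds the XBP1 core) was found in *Sec23a* alone of the 31, against 0.714% of all genes. The composite element of CHOP and ATF4 (TGATG, any base, AAT) and an NF-κB motif (GGGA, any 2 bases, TTCC) were found in 0 of the 31, against 1.08 and 1.63% of all genes. A match here is a stretch of letters and not a measured binding site.

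Genes of the same pathway outside the 36 moved in the same direction for the most part. Of 47 other ER folding and export genes, 31 fell and 7 rose with TNFα in control cells (median -0.32 on the log2 scale), and 34 fell and 5 rose in mutant cells (median -0.35). The KDEL receptor genes *Kdelr3* and *Kdelr2*, whose products return escaped chaperones to the ER, fell with log2 fold changes of -1.21 and -0.95 in control cells and of -1.25 and -0.96 in mutant cells. The COPII coat gene *Sec24d* changed by -0.87 and -0.78. *Derl3*, an ERAD gene, rose by 1.31 and 1.40 from a low level, at most 0.940 CPM in any vehicle library. Of 20 targets of the ATF4 pathway, 11 fell and 4 rose in each genotype. The stress-induced genes *Nupr1* (1.46 and 1.64) and *Atf3* (1.00 and 0.89) rose beside *Ddit3*. The glutathione-degrading enzyme gene *Chac1* (-0.99 and -1.03), the serine synthesis gene *Psat1* (-0.94 and -0.94) and the cysteine synthesis gene *Cth* (-0.96 and -1.08) fell.

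Other genes of collagen maturation were evenly divided. Of 15, 7 rose and 7 fell in control cells, and 5 rose and 6 fell in mutant cells. *Adamts3*, which cuts the amino end of procollagen II, fell with log2 fold changes of -2.33 and -2.65, and its relative *Adamts14* rose by 0.87 and 1.31. *Fkbp14*, which encodes another prolyl isomerase of the ER, fell with log2 fold changes of -1.05 and -1.19, and *P3h2*, which encodes a further prolyl 3-hydroxylase, had -1.11 and -1.32. Of the clients, 22 collagen chain genes, 5 rose and 6 fell in control cells, and 6 rose and 5 fell in mutant cells. *Col27a1* (-1.07 and -1.39) and *Col11a1* (-0.57 and -0.73) had the largest falls that passed in both genotypes, *Col2a1* fell with log2 fold changes of -0.45 and -0.69, and *Col18a1* rose by 0.93 and 0.97. Their summed level was 94456 to 100717 CPM in control vehicle and 78376 to 90191 CPM in control TNFα libraries, with no overlap, and 83075 to 92521 and 71826 to 85574 CPM in mutant cells, which overlapped.

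Other gene lists moved with TNFα too. Of 15 chondrocyte markers 14 fell in each genotype, and their summed level was 45925 to 50092 CPM with vehicle and 34117 to 40093 CPM with TNFα in control cells, and 29093 to 34157 and 18642 to 21001 CPM in mutant cells. Of 8 proliferation markers 6 fell in control and 7 in mutant cells (summed 810.2 to 922 and 613 to 728 CPM in control cells with vehicle and TNFα, 954 to 1111 and 756 to 909 CPM in mutant cells). Of 9 hypertrophic chondrocyte markers 7 fell and 1 rose in control cells, and 6 fell and 1 rose in mutant cells, while their summed level, most of it *Spp1*, was higher with TNFα (1299 to 1427 and 1621 to 1977 CPM in control cells, 976 to 1071 and 1247 to 1496 CPM in mutant cells). Macrophage markers rose with TNFα, 4 of 11 tested in control and 9 of 12 in mutant cells (summed 68.7 to 75.5 and 87.4 to 101 CPM, and 132 to 155 and 182 to 206 CPM). Of 9 fibroblast markers 5 rose and 1 fell in control cells, and 4 rose and 1 fell in mutant cells, with summed levels that overlapped between treatments. Of 7 endothelial markers 1 rose in control and 0 changed in mutant cells, and of 8 skeletal muscle markers 2 fell in each genotype. The part of these changes in the falls of the 36 genes was not tested.

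The next question was whether the *Notch2* mutation changed these genes by itself. With vehicle, 4 of the 36 genes were higher in mutant than in control cells and 4 were lower, against 6.19% and 4.35% of the 19432 genes tested, and the median log2 fold change was 0.012, against -0.002 over all genes. The 4 higher genes were ER chaperones. *Sdf2l1* was at 32.1, 33.6, 31.9 and 31.2 CPM in control and 39.3, 44.3, 39.8 and 40.8 CPM in mutant vehicle libraries, a log2 difference of 0.36 ± 0.064 (adjusted p = 4.05e-04). *Manf* was higher by 0.24 ± 0.054 (adjusted p = 0.0033), with each mutant library above each control library (values given above). *Creld2* was higher by 0.22 ± 0.062 (adjusted p = 0.0266), a call lost without control vehicle replicate 1 or 4 or mutant vehicle replicate 3 or 4 (range 0.16 to 0.24, adjusted p up to 0.0901). *Calr* was higher by 0.17 ± 0.05 (adjusted p = 0.0303), lost without control vehicle replicate 1, 2 or 3 or mutant vehicle replicate 2 (range 0.13 to 0.18). *Hspa5* had a difference of 0.11 ± 0.048 (adjusted p = 0.191), which passed without mutant vehicle replicate 1 (0.13, adjusted p = 0.0212).

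The 4 lower genes were *Ern1*, *Ddit3*, *P4ha1* and *Plod2*. The *Ern1* difference was -0.34 ± 0.062 (adjusted p = 4.85e-04) and that of *Ddit3* -0.26 ± 0.055 (adjusted p = 0.00264), each with the mutant libraries below the control libraries. The *Ddit3* call was lost when all 16 libraries were fitted together (adjusted p = 0.12). For *P4ha1*, at 575 to 581 CPM in mutant against 653 to 697 CPM in control cells, it was -0.22 ± 0.045 (adjusted p = 0.00182). For *Plod2* it was -0.27 ± 0.065 (adjusted p = 0.00848), not passing without control vehicle replicate 4 (-0.29, adjusted p = 0.0515), and mutant vehicle replicate 1 was the lowest library. Without mutant vehicle replicate 1 the count of lower genes rose from 4 to 10, and *P4ha2* (-0.15, adjusted p = 0.00548), *Plod1* (-0.19, adjusted p = 0.00126), *P3h1* (-0.14, adjusted p = 0.0144), *Herpud1* (-0.13, adjusted p = 0.0294), *Atf6* (-0.14, adjusted p = 0.0355) and *Mia3* (-0.12, adjusted p = 0.0463) were added. *Atf6*, *Herpud1* and *Plod1* were also lower without control vehicle replicate 4 (-0.18, adjusted p = 0.0208, -0.15, adjusted p = 0.0395 and -0.18, adjusted p = 0.0185). Without control vehicle replicate 4, the library with high *Icam1*, 3 genes were higher and 6 lower. The higher genes numbered 2 without control vehicle replicate 1. With all libraries *Plod1* (-0.15 ± 0.05 (adjusted p = 0.0506)), *Atf6* (-0.15 ± 0.052 (adjusted p = 0.0692)) and *Dnajb9* (-0.22 ± 0.082 (adjusted p = 0.11)) did not pass, but other settings on the same libraries called them lower. *Plod1* passed with DESeq2, RLE scaling, filterByExpr and no filter beyond 1 count (adjusted p = 0.0201, 0.0415, 0.0436 and 0.0331), and *Atf6* with DESeq2 and filterByExpr (adjusted p = 0.0341 and 0.0498). *Dnajb9* passed with no filter beyond 1 count (-0.22, adjusted p = 0.0217), and also without mutant vehicle replicate 2 (-0.28, adjusted p = 0.0499).

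**Figure D4:**
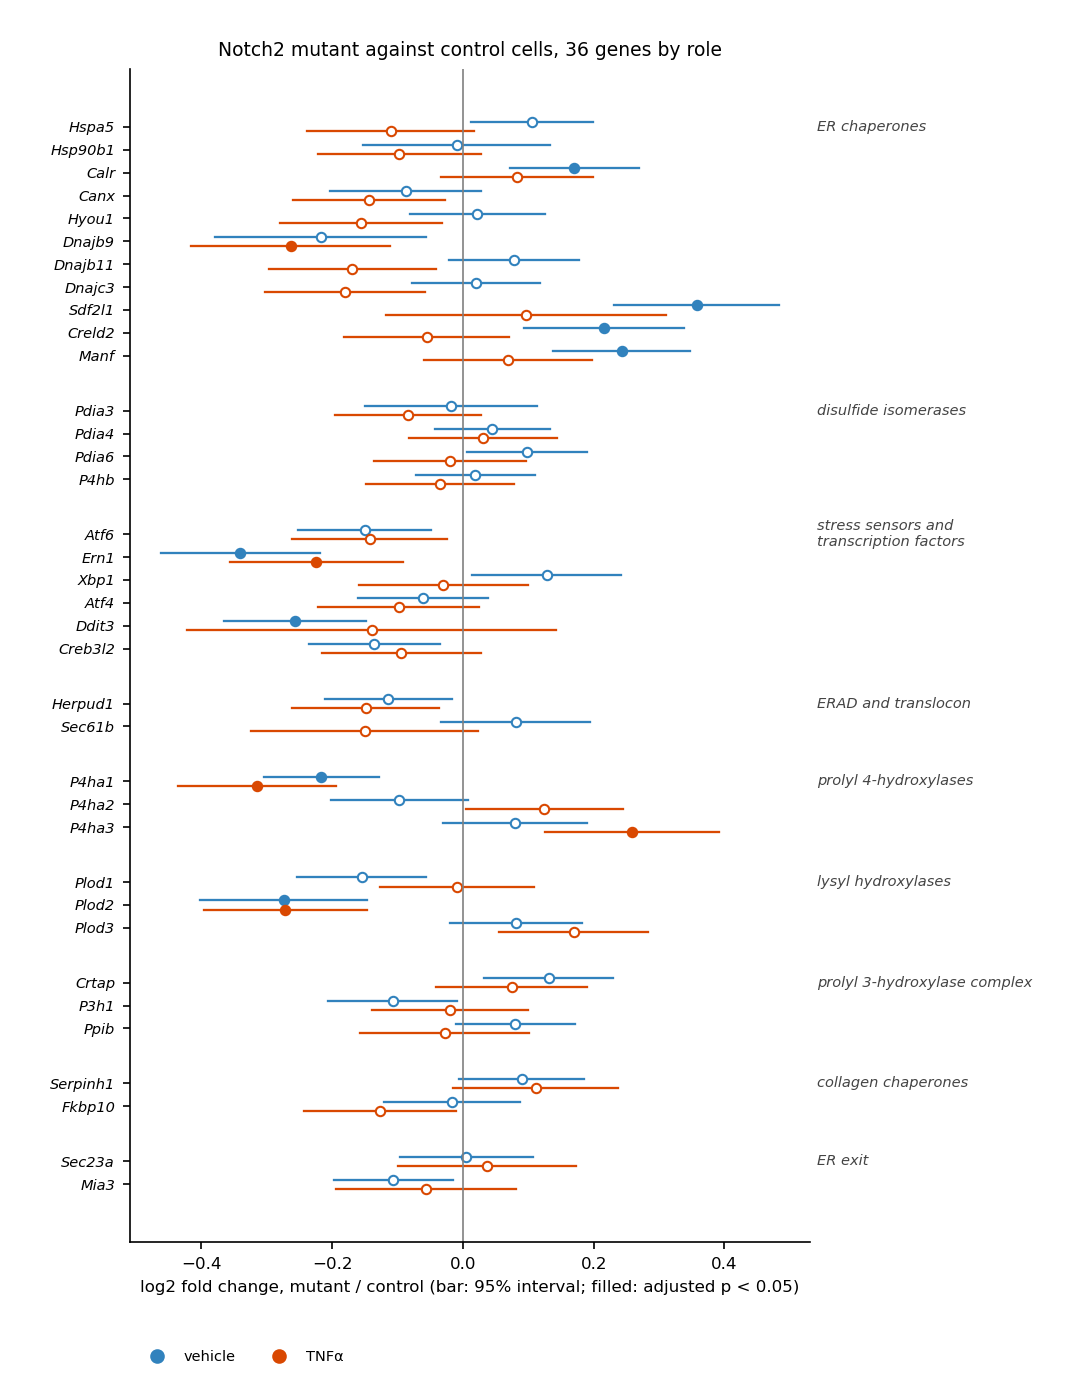
Log2 fold change of Notch2 mutant against control cells (x axis) for the 36 genes, ordered by role (y axis), with vehicle (blue) and with TNFα (red), with 95% intervals. Filled points passed an adjusted p under 0.05, 8 with vehicle and 5 with TNFα, and *Ern1*, *P4ha1* and *Plod2* lie left of 0 under both treatments.

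With TNFα, 1 of the 36 genes was higher in mutant than in control cells and 4 were lower, against 5.63% and 4.31% of the 19227 genes tested, and the median log2 fold change was -0.07, against -0.012 over all genes. *P4ha1* was at 416, 405, 415 and 473 CPM in control and 335, 351, 338 and 339 CPM in mutant TNFα libraries, a difference of -0.32 ± 0.062 (adjusted p = 7.60e-04) with no overlap. *Plod2* differed by -0.27 ± 0.064 (adjusted p = 0.0045), again with no overlap. *Ern1* was lower, at a log2 difference of -0.22 ± 0.067 (adjusted p = 0.0301), a call lost without control TNFα replicate 1 or 2 or mutant TNFα replicate 1, 2 or 3 (range -0.27 to -0.19, adjusted p up to 0.13) and with the default expression filter of edgeR (-0.21, adjusted p = 0.0542). *Dnajb9* was lower, at a log2 difference of -0.26 ± 0.078 (adjusted p = 0.0273), lost without control TNFα replicate 1 or 3 or mutant TNFα replicate 1, 2 or 3 (adjusted p up to 0.113). *P4ha3* was higher by 0.26 ± 0.068 (adjusted p = 0.0117), lost without control TNFα replicate 1 (0.24, adjusted p = 0.0509) or mutant TNFα replicate 3 (0.18, adjusted p = 0.122), so that without either no gene was higher. The count of lower genes was 2 without control TNFα replicate 1 or mutant TNFα replicate 1, 2 or 3, and *P4ha1* and *Plod2* then remained. *Ddit3* was lower only without mutant TNFα replicate 4 (-0.29, adjusted p = 0.00129). *Plod3* (0.17 ± 0.058 (adjusted p = 0.0663)) was higher with DESeq2 and filterByExpr (adjusted p = 0.0112 and 0.0413), and *Dnajc3* (-0.18 ± 0.062 (adjusted p = 0.0681)) was lower when all 16 libraries were fitted together (adjusted p = 0.037). The 2 genotype comparisons use separate libraries, and *Ern1*, *P4ha1* and *Plod2* were lower in both, 3 of the 4 lower genes with each treatment. Of the 18376 genes tested in both comparisons, 419 were lower in both.

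Markers of other cells differed between the genotypes as well. All 15 chondrocyte markers were lower in mutant cells with vehicle and with TNFα. Of 9 hypertrophic chondrocyte markers 3 were higher and 3 lower with vehicle. With TNFα 1 was higher and 2 were lower, of 8 tested. Their summed level was 1299 to 1427 CPM in control and 976 to 1071 CPM in mutant vehicle libraries, and 1621 to 1977 and 1247 to 1496 CPM with TNFα. Of 12 macrophage markers 9 were higher in mutant cells with vehicle and 11 with TNFα, with a summed level of 68.7 to 75.5 CPM in control and 132 to 155 CPM in mutant vehicle libraries, and 87.4 to 101 and 182 to 206 CPM with TNFα. Of 7 endothelial markers 4 and 3 were higher (summed 8.24 to 10.2 and 18.0 to 21.5 CPM with vehicle, 11.4 to 14.0 and 19.5 to 25.8 CPM with TNFα). Of 9 fibroblast markers 5 and 7 were higher and 1 was lower with each treatment (summed 31294 to 34250.1 and 35514 to 38263 CPM with vehicle, 30595 to 33613 and 33989.9 to 41837 CPM with TNFα). Of 8 skeletal muscle markers 5 and 2 were higher, at a summed level of at most 31.5 CPM, and of 8 proliferation markers 6 and 3 were higher. None of these markers was at 0 in all libraries. The part of these differences in the genotype differences of the 36 genes was not tested. Among the 22 collagen chain genes 9 were higher and 8 lower in mutant cells with vehicle, and 10 were higher and 7 lower with TNFα. *Col2a1* was lower, at log2 differences of -0.65 and -0.88, and the basement membrane gene *Col4a1* was higher by 1.11 and 1.18.

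The last comparison asked whether the response to TNFα differed between the genotypes. None of the 36 genes passed the interaction test at an adjusted p under 0.05 by edgeR's quasi-likelihood test or by DESeq2, against 0.474% of the 21321 genes tested with edgeR. At an unadjusted p under 0.05, 8 of the 36 differed with edgeR and 7 with DESeq2, against 8.71 and 7.65% of all genes. The difference was below 0, a larger fall or smaller rise in mutant cells, for 24 of the 36 genes with edgeR and for each of the 11 ER chaperones, against 51.8% of all genes. The largest was that of *Creld2*, at -0.27 ± 0.09 (adjusted p = 0.23), with a 95% interval of -0.45 to -0.10. *Sdf2l1* had -0.27 ± 0.12, *Dnajb11* -0.25 ± 0.088 and *Hspa5* -0.22 ± 0.078 (adjusted p = 0.53, 0.269 and 0.282). Within the collagen enzymes, *P4ha2* had 0.22 ± 0.082 in the other direction (adjusted p = 0.353). For *P4ha1*, *Plod2* and *Serpinh1* the 95% intervals of the difference were -0.25 to 0.044, -0.19 to 0.18 and -0.12 to 0.15. In control cells replicate 4 lay nearer the other treatment on the first principal component. It was at -17.0 with vehicle (the rest -67.3 to -64.9) and at 45.7 with TNFα (the rest 59.8 to 63.4). Without either of these control libraries the number of genes that passed the interaction test was still 0. Their part in the size and direction of the differences of the 36 genes and of the 11 ER chaperones was not tested.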

How the data were processed

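RNA for 16 libraries was sequenced as paired 75 bp reads from a stranded library kit. The authors trimmed the reads with Trimmomatic, mapped them with HISAT2 and counted them per gene with htseq-count, and deposited raw counts for 55414 Ensembl identifiers in each library. The submitters' processing notes name HISAT2 2.1.0, SAMtools 1.9 and the GRCm38 build, while the methods of the study name a newer build, and the strand setting of the counting is not given in the sources used here. Rows that name no gene (8.81 to 12.1% of reads) were left out of totals and tests. *Ddit3* has a second identifier with 0 counts in all libraries. Symbols came from the GENCODE annotation provided, in which 665 identifiers were absent.

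The deposited counts were fitted with edgeR 4.0.16 (R 4.3.3), by the quasi-likelihood test with TMM normalization, on genes with at least 10 counts summed over the compared libraries. Each comparison used its own 8 libraries, the interaction used all 16, and p values were adjusted by Benjamini-Hochberg over the genes tested. CPM used TMM-scaled library sizes. The standard error was the size of the log2 fold change divided by the square root of the test's F statistic. The 95% intervals used that error times the normal quantile, and are therefore narrower than the test implies. For *Canx* with TNFα in mutant cells the interval was -0.27 to -0.0040, with an unadjusted p of 0.054 by the quasi-likelihood test. Levels per kilobase used the canonical transcript length. Depth (3439726 to 44237300 counts) sets the counting error, and spread between libraries exceeded it (chi-square per degree of freedom 2.14 to 16.0). Alternatives were DESeq2 1.42.0, RLE scaling, filterByExpr, no filter beyond 1 count, the replicate number as a block, 1 fit of all 16 libraries, a fold cutoff, and leaving out single libraries or both control replicate 4 libraries. The fit was first run on simulated data with known changes, for mutant against control cells with TNFα and for the interaction. Those changes were larger than nearly all of those of the 36 genes, and the simulated spread was uniform across genes. The simulation therefore does not cover small changes or libraries that stand apart. Sequences are RefSeq promoters of GRCm38.p6. The genes and lists were chosen with earlier results of these data known. All 36 genes are named. From other lists, named genes passed a test and had one of the 3 largest log2 fold changes in either direction in their list, or were the most abundant markers.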

Additional observations from a re-analysis of the deposited data

Results flagged for a closer look

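Of 144 sets of 4 libraries (36 genes in 4 groups), 21 held a library whose CPM lay far from the other 3, at a limit that chance passes in about 1 in 20 sets. Mutant vehicle replicate 1 gave 8 of the 21, control TNFα replicate 4 and mutant TNFα replicate 4 gave 4 each, and control vehicle replicate 4 gave 2.

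Control vehicle replicate 4 was lower than the other 3 libraries of its group in *Hspa5* (1881 CPM against 1970.4 to 1986 CPM) and *Serpinh1* (3364 CPM against 3645 to 3680.4 CPM).
Mutant vehicle replicate 1 was higher than the other 3 libraries of its group in *Creld2* (109 CPM against 93.5 to 94.9 CPM), *Pdia6* (784 CPM against 730.3 to 736 CPM), *Xbp1* (169 CPM against 163 to 164 CPM), *P4ha2* (336 CPM against 289.8 to 297 CPM), *P4ha3* (83.0 CPM against 78.7 to 79.2 CPM) and *Fkbp10* (809 CPM against 697 to 711 CPM). It was lower in *Canx* (518 CPM against 632 to 639 CPM) and *Plod2* (270.1 CPM against 338 to 352 CPM).
Control TNFα replicate 4 was higher than the other 3 libraries of its group in *Hyou1* (316 CPM against 284 to 287 CPM), *Dnajb11* (148 CPM against 132 to 134 CPM), *P4ha1* (473 CPM against 405 to 416 CPM) and *Plod3* (399.5 CPM against 395.7 to 396.2 CPM).
Mutant TNFα replicate 4 was higher than the other 3 libraries of its group in *Ddit3* (159 CPM against 103 to 109.6 CPM) and *Sec23a* (113 CPM against 108 to 109 CPM). It was lower in *Hyou1* (227 CPM against 266 to 273 CPM) and *Xbp1* (64.3 CPM against 78.7 to 81.0 CPM).
*Manf* was at 251 CPM in mutant vehicle replicate 4, against 267 to 270.2 CPM in the other 3.
*Sec61b* was at 90.5 CPM in mutant vehicle replicate 3, against 84.5 to 85.0 CPM in the other 3.
*Crtap* was at 295 CPM in control TNFα replicate 3, against 278 to 281 CPM in the other 3.

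Mutant vehicle replicate 1 also had the lowest share of mitochondrial counts (0.24%) of the 16 libraries, and mutant TNFα replicate 4 the fewest counts (3439726). The part of these in the values above was not tested.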

How the results depend on the processing

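Over 144 results (36 genes in 4 comparisons) and 2052 alternative values, 1922 kept their direction and their side of the threshold, 57 lost a call, 28 gained one and 45 changed sign. None of the 45 had passed the test, and the largest main size among them was 0.056 on the log2 scale. Across single left-out libraries, the genes that fell with TNFα numbered 24 to 27 in control and 23 to 26 in mutant cells, and those that rose 2 and 3 to 4. In mutant against control cells with vehicle 2 to 5 were higher and 4 to 10 lower, and with TNFα 0 to 1 higher and 2 to 5 lower. The interaction count was 0 throughout. Over the other settings on all libraries, apart from the fold cutoff, 3 to 6 genes were lower in mutant against control cells with vehicle: *Plod1* was gained by 4 settings, *Atf6* by 2 and *Dnajb9* by 1, and *Ddit3* was lost by 1. For TNFα in mutant cells, *P3h1* was lost by 3. Requiring a log2 fold change of 1 as well left 0 higher and 0 lower in control cells with TNFα, 0 higher and 2 lower in mutant cells, and 0 and 0 in each genotype comparison. For mutant against control cells with TNFα, DESeq2 and filterByExpr each gave 2 higher genes.

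Libraries with the same replicate number had correlations of their deviations from the group means of -0.129 to 0.0933, none over 0.1. The lowest was that of the replicate 4 libraries of control cells with vehicle and TNFα. Deviations from means of 4 libraries cannot exclude that libraries were paired. With the replicate block, the lower genes of mutant against control cells with TNFα numbered 2. The block ended 4 calls, *Calr* and *P4hb* in control cells with TNFα (-0.083 and -0.09) and *Dnajb9* and *Ern1* in mutant against control cells with TNFα (-0.25 and -0.22), and no other. A fit of all 16 libraries ended the calls of *Hsp90b1*, *Calr* and *P4hb* for TNFα in control cells (adjusted p = 0.0841, 0.164 and 0.0923).

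Sign changes were as follows, on the log2 scale and in values near 0. *Ppib* for TNFα in control cells was -0.0018 with DESeq2, -0.0017 with RLE scaling and -0.0045 with no filter beyond 1 count. *P4ha3* for TNFα in mutant cells was 0.015 with filterByExpr. *Sec23a* in mutant against control cells with vehicle was -0.0013 with DESeq2, -0.0014 with RLE scaling and -0.0016 in the fit of all 16 libraries, and *Plod1* with TNFα was 0.0058 with filterByExpr. Leaving out single libraries, for TNFα in control cells, the values ranged for *Pdia3* from -0.0198 to 0.00106, *P4ha2* from -0.0264 to 0.00751 and *Ppib* from -0.0216 to 0.0416. Leaving out single libraries, for TNFα in mutant cells, the values ranged for *P4ha3* from -0.0727 to 0.0389, *Plod1* from -0.0649 to 0.00960 and *Crtap* from -0.0165 to 0.0607. Leaving out single libraries, for mutant against control cells with vehicle, the values ranged for *Hsp90b1* from -0.0566 to 0.0734, *Hyou1* from -0.0243 to 0.0388, *Dnajc3* from -0.0153 to 0.0404, *Pdia3* from -0.0703 to 0.0615, *P4hb* from -0.0111 to 0.0343, *Fkbp10* from -0.0741 to 0.00478 and *Sec23a* from -0.0300 to 0.0334. Leaving out single libraries, for mutant against control cells with TNFα, the values ranged for *Pdia6* from -0.0532 to 0.00318, *Xbp1* from -0.0625 to 0.0143, *Ppib* from -0.0764 to 0.0204, *Sec23a* from -0.0205 to 0.0991 and *Mia3* from -0.113 to 0.00189. The cause of these changes was not tested. Depth limits most the members of few counts, which were *Sdf2l1* and *Dnajb9* in the smallest library (110 and 141 counts).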

Other observations

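Heat shock genes of the cytosol, outside the ER, were measured beside the 36 genes. Of 12, 5 fell and 2 rose with TNFα in control cells, and 5 fell and 3 rose in mutant cells. *Hsph1*, which encodes a nucleotide exchange factor for cytosolic HSP70, fell by 50.0% in control cells and fell by 52.7% in mutant cells. *Hsp90aa1*, an inducible HSP90 gene, had log2 fold changes of -0.65 and -0.70, both past the threshold. *Hspa1a*, an inducible HSP70 gene, rose by 0.52 and 0.49 on the log2 scale. The median log2 fold change of the 12 was -0.11 in control and -0.13 in mutant cells. Of the 20 ATF4 pathway targets, 6 were lower in mutant than in control cells with each treatment and 0 were higher, and *Stc2*, which encodes a stress-induced secreted glycoprotein, differed by -0.62 with vehicle and -0.73 with TNFα. *Nupr1* differed by -0.59 and -0.41, and *Ppp1r15a*, whose product GADD34 restores translation, by -0.43 and -0.39.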
